A study of Rattus norvegicus with 10 samples.

Results

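The genes described here are 6 factors of the oligodendrocyte (OL) lineage: Olig1 (ENSRNOG00000028648), Olig2 (ENSRNOG00000028658), Nkx2-2 (ENSRNOG00000012728), Nkx6-2 (ENSRNOG00000017748), Zfp488 (ENSRNOG00000057542) and Zfp365 (ENSRNOG00000000638). They were chosen by name, through the gene symbols in the table the authors deposited, from a count table of 23487 rat genes, and each symbol matched 1 gene identifier. All 6 were measured in every library and all 6 passed the filter on low counts in every comparison. RNA was sequenced from primary cells of Sprague-Dawley rat pups (P1-P3). The cells came from cortical mixed glial cultures, from which oligodendrocyte progenitor cells (OPCs) were shaken off, so other glia can be carried along. There were 10 libraries in 5 groups of 2. The 6 OL libraries were made 5 days after transfection of cells in differentiation medium with a scrambled mimic (miR-ctl), the miR-145-5p mimic (miR-145), or the miR-145-5p and miR-219 mimics together (miR-145+miR-219). The 4 OPC libraries were made 24 h after transfection of cells in proliferation medium with a miR-145-5p inhibitor (anti-miR-145) or a scrambled inhibitor (anti-miR-ctl). Each oligonucleotide was used at 30 nM. The treatment tag of the OL miR-145 libraries also names miR-219, whereas their titles name miR-145 alone, and the titles were followed. A methods passage of the study names lentiviral delivery for the sequenced cells, whereas the labels and its account of the experiment name mimics, which is the description used here.

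OPCs are dividing glial precursors that leave the cell cycle and become OLs, the cells that wrap axons in myelin. The 6 genes stand at different points of this path. Olig1 and Olig2 are basic helix-loop-helix (bHLH) proteins that bind E-boxes as dimers. Olig2 is needed to specify the lineage, and Olig1 acts later, in myelination and repair. Nkx2-2 and Nkx6-2 are homeodomain repressors. Nkx2-2 marks ventral progenitors and, in OPCs about to differentiate, lowers Pdgfra, the receptor that keeps them dividing, while Nkx6-2 is a late factor of myelinating cells. Zfp488 is a zinc finger co-repressor of the lineage that works with Olig2. Zfp365 is a zinc finger protein known as a binding partner of DISC1, and its standing as a DNA-binding transcription factor is the least settled of the 6.

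A microRNA lowers transcripts whose 3′ ends pair with its seed, the bases at positions 2 to 8. The mature miRNA that was added or inhibited is shown because every treated group but its controls differs in it, with the seed in capitals. It is RefSeq's rat entry, written as RNA, at chr18:57370033-57370055 on the minus strand of GRCr8.
rno-miR-145-5p: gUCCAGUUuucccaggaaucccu
Sites for this seed in the transcripts of the 6 genes, and the level of the miRNA itself, were not analysed here.

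Library totals lay between 33505706 and 42684206 estimated counts, so counting error is small for every one of the 6 genes except Nkx6-2 in OPCs, which had 96 to 107 counts per library. Levels below are counts scaled to library size (CPM) with TMM factors over all libraries, and they were not compared between genes, because CPM is not divided by transcript length. Markers of the labelled cells were present. The summed level of 15 myelin genes was 21120 to 41490 CPM in OL libraries and 2066 to 2178 CPM in OPC libraries, and Pdgfra averaged 911.5 ± 4.76 CPM (SD, n = 2) in OPC anti-miR-ctl against 225.8 ± 55.9 CPM (SD, n = 2) in OL miR-ctl. Of 8 OPC markers tested between these groups, 5 were lower in OLs at an edgeR adjusted p under 0.05, Pdgfra among them. The other 3 were higher in OLs, namely Gpr17 (log2 3.74), Bcan (log2 1.54) and Vcan (log2 0.55). The OL libraries also held astrocyte markers. Gfap, the astrocyte intermediate filament, averaged 4489 ± 438 CPM (SD, n = 2) in OL miR-ctl and 8.02 ± 0.30 CPM (SD, n = 2) in OPC anti-miR-ctl. In bulk libraries such as these, fewer cells of a type and less RNA per cell cannot be told apart.

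Whether the 6 factors differ between progenitors and OLs was read from the 2 control groups. All 6 differed. The bHLH genes Olig1 and Olig2 were lower in OLs, and the homeodomain and zinc finger genes were higher, most of all Nkx6-2. Across all genes 57.5% of 15721 were called in this comparison, with 28.8% higher and 28.7% lower. Medium, time after transfection and the kind of control oligonucleotide changed with the stage, so their parts cannot be told apart.

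Olig1 was at 1738 and 1650 CPM in OPC anti-miR-ctl and at 685.8 and 661.4 CPM in OL miR-ctl. It was 2.52-fold lower in OLs, a log2 fold change of -1.33 (SE 0.08, edgeR adjusted p = 0.00019), and the groups were far apart. Olig2 was at 498.0 and 488.5 CPM in OPC anti-miR-ctl and at 411.6 and 351.2 CPM in OL miR-ctl. Its log2 fold change of -0.38 (SE 0.10, edgeR adjusted p = 0.0262) was the smallest of the 6, and it lost its call when OPC anti-miR-ctl library 1 or 2 was left out (adjusted p = 0.149 and 0.141). The Olig2 count per 100 Olig1 counts was therefore higher in OL miR-ctl, at 60.0 and 53.1, than in OPC anti-miR-ctl, at 28.7 and 29.6. Nkx2-2 was at 40.84 and 36.42 CPM in OPC anti-miR-ctl and at 109.7 and 73.7 CPM in OL miR-ctl. Its OL libraries lay apart from the OPC libraries but also 1 from the other, and the log2 fold change was 1.24 (SE 0.20, edgeR adjusted p = 0.00457). Nkx6-2 was at 2.316 and 2.768 CPM in OPC anti-miR-ctl and at 22.24 and 31.81 CPM in OL miR-ctl. This 10.6-fold difference (log2 3.41, SE 0.23, edgeR adjusted p = 0.000269) was the largest of the 6. Zfp488 was at 12.91 and 12.06 CPM in OPC anti-miR-ctl and at 95.46 and 71.52 CPM in OL miR-ctl, 6.67-fold higher (log2 2.74, SE 0.16, edgeR adjusted p = 0.000178). Zfp365 was at 27.98 and 28.58 CPM in OPC anti-miR-ctl and at 155.8 and 120.1 CPM in OL miR-ctl, 4.86-fold higher (log2 2.28, SE 0.14, edgeR adjusted p = 0.000204). For these last genes the lowest OL library stood well above the highest OPC library.

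**Figure D1:**
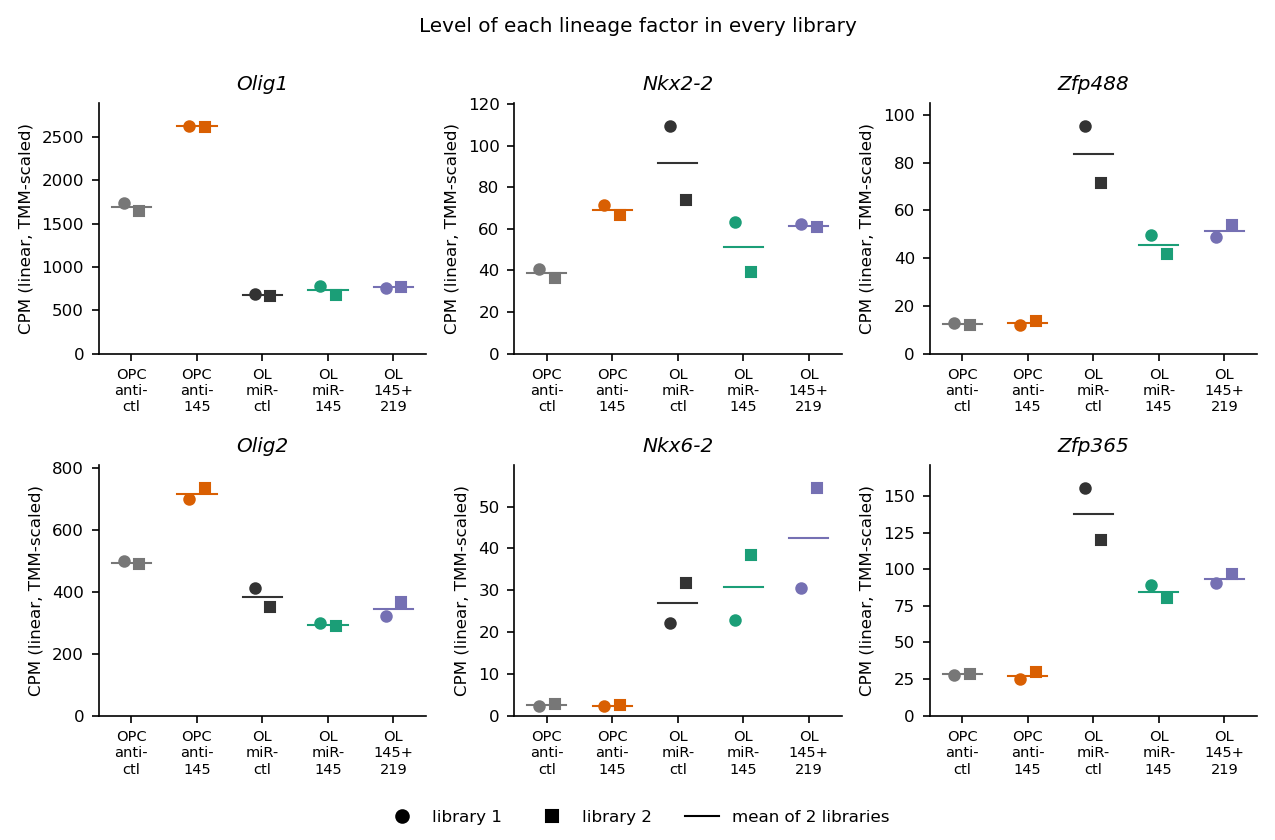
CPM (TMM-scaled, linear axis from 0) of each of the 6 factors in every library, with the 5 groups on the horizontal axis, circles for library 1, squares for library 2 and a bar for the mean of the 2 libraries. Olig1 and Olig2 peak in OPC anti-miR-145, at 2628 and 716.0 CPM on average, whereas Zfp488 and Zfp365 peak in OL miR-ctl, at 83.49 and 137.9 CPM, and Nkx6-2 in OL miR-145+miR-219, at 42.45 CPM.

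Inhibiting miR-145 in OPCs asks which genes move when the miRNA is taken away from progenitors. Olig1, Olig2 and Nkx2-2 rose, and the late genes Nkx6-2, Zfp488 and Zfp365 were not called. Thus 3 of 6 factors were called higher, where 12.1% of the 15496 genes tested were called higher, 16.0% lower and 28.1% in either direction. The same 3 were called under all of the alternatives tried, including each with a library left out.

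Olig1 reached 2634 and 2623 CPM with anti-miR-145 against the 1738 and 1650 CPM of anti-miR-ctl. Both treated libraries lay above both controls, and the log2 fold change was 0.65 (SE 0.08, 1.57-fold, edgeR adjusted p = 0.00143). Olig2 reached 697.0 and 734.9 CPM against 498.0 and 488.5 CPM, a log2 fold change of 0.55 (SE 0.08, 1.47-fold, edgeR adjusted p = 0.00263). The ratio of the bHLH pair moved little, with 26.5 and 28.0 Olig2 counts per 100 Olig1 counts under anti-miR-145. Nkx2-2 reached 71.52 and 66.77 CPM against 40.84 and 36.42 CPM, and its log2 fold change of 0.86 (SE 0.10, 1.81-fold, edgeR adjusted p = 0.000853) was the largest of the 3. With that, inhibited OPCs lay between OPC anti-miR-ctl and OL miR-ctl in Nkx2-2, without overlap on either side. Nkx6-2 was at 2.383 and 2.429 CPM, inside the range of its controls, with a log2 fold change of -0.06 (SE 0.20, edgeR adjusted p = 0.843). Zfp488 was at 11.97 and 13.74 CPM (log2 0.06, SE 0.11, edgeR adjusted p = 0.742) and Zfp365 at 25.02 and 29.67 CPM (log2 -0.03, SE 0.11, edgeR adjusted p = 0.836). For these 3 genes the treated libraries overlapped the controls, and the sign changed when single libraries were left out.

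**Figure D2:**
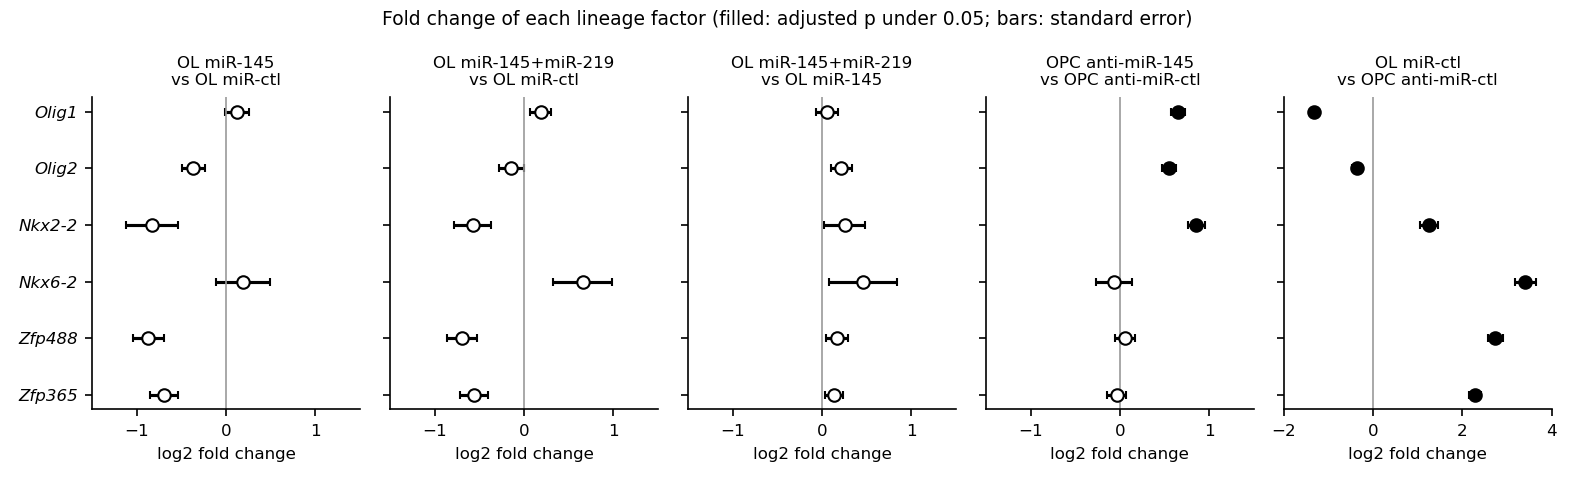
Log2 fold change of each factor (horizontal axis, 5 comparisons as panels, the last on a wider axis) with its standard error as bars, from edgeR. Filled points passed an adjusted p under 0.05, which 3 factors did with anti-miR-145 in OPCs, all 6 did between stages, and none did in the 3 OL comparisons.

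Partners and opponents of bHLH factors were examined beside this, as a list of 14 genes holding the E proteins, the Id proteins and co-repressors. With anti-miR-145, 3 of the 14 rose and 4 fell. Those that fell were Id1, Id2, Id3 and Id4, which bind E proteins and keep bHLH dimers off DNA. Id1 was at 7.10 and 7.742 CPM against 28.33 and 25.81 CPM in the controls, a log2 fold change of -1.85 (SE 0.11, edgeR adjusted p = 8.27e-05). Id4 (-0.76, SE 0.15, adjusted p = 0.0103), Id3 (-0.57, SE 0.12, adjusted p = 0.0144) and Id2 (-0.41, SE 0.09, adjusted p = 0.0172) followed on the log2 scale. The 3 that rose were Tle2, a Groucho co-repressor (log2 0.45, SE 0.08, adjusted p = 0.00804), Smarca4, the ATPase of the BAF remodelling complex (log2 0.41, SE 0.08, adjusted p = 0.00964), and Tcf3, which encodes E proteins (log2 0.29, SE 0.09, adjusted p = 0.0422). Id1 was called with each library left out. The count of 7 fell to 1, Id1 alone, without OPC anti-miR-ctl library 1, and to 3 without OPC anti-miR-ctl library 2.

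**Figure D3:**
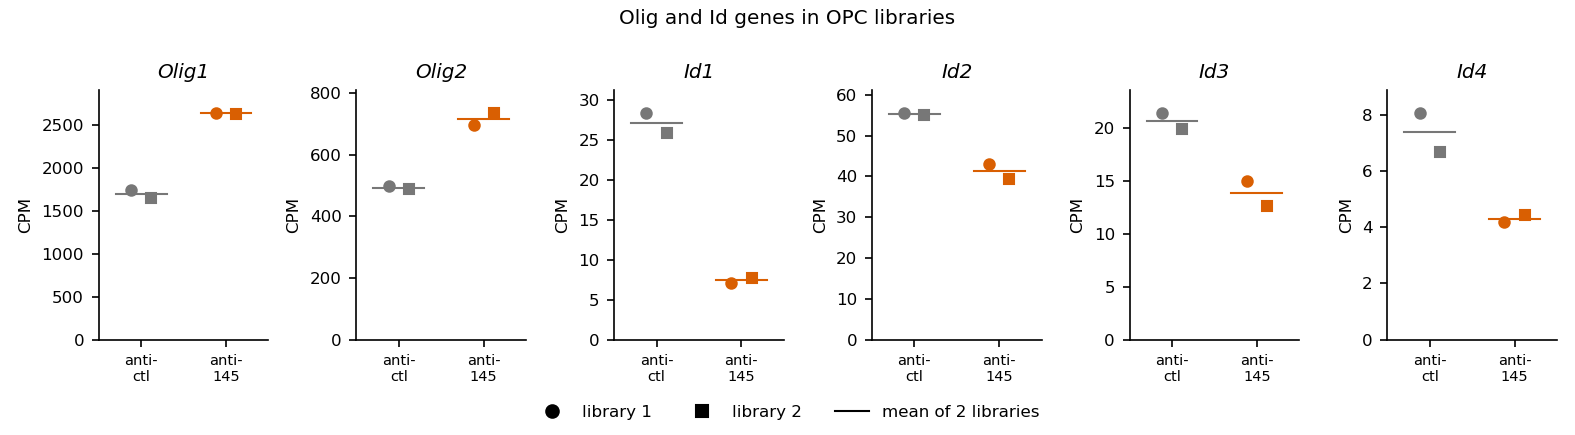
CPM (linear axes from 0) of Olig1, Olig2 and the 4 Id genes in the OPC libraries, with anti-miR-ctl and anti-miR-145 on the horizontal axis, circles for library 1, squares for library 2 and bars for means. Both anti-miR-145 libraries are above both controls for the Olig genes and below both for the Id genes, with Id1 at 7.421 against 27.07 CPM on average.

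Of 28 other lineage factors listed, 24 were tested, and 6 rose and 7 fell with anti-miR-145. The risers held Sox9 (log2 2.46, SE 0.09), an early glial factor that also marks astrocytes, and Sox8 (1.15, SE 0.08) and Sox10 (0.33, SE 0.08), the SoxE partners of differentiation. Klf9 (1.21, SE 0.12) and Sox11 (1.19, SE 0.10) rose too. Between the control stages Klf9 was higher in OLs (log2 2.21, SE 0.09) and Sox11 was lower (log2 -2.40, SE 0.09). Myrf, the master regulator of myelin genes, fell from 87.81 and 75.17 CPM to 33.59 and 34.60 CPM (log2 -1.24, SE 0.10, edgeR adjusted p = 0.000203). Hes5, a Notch effector with low counts throughout, fell from 1.474 and 1.37 CPM to 0.348 and 0.477 CPM (log2 -1.76, SE 0.31). Zeb2, a repressor of differentiation inhibitors, fell by 0.65 on the log2 scale (SE 0.12). Sox10 kept no call without OPC anti-miR-ctl library 1 or without library 2. Pdgfra, which Nkx2-2 is known to repress, was at 1228 and 1524 CPM against 914.8 and 908.1 CPM and rose by 0.61 (log2, SE 0.11, edgeR adjusted p = 0.00709). Thus Nkx2-2 and Pdgfra were higher in the same libraries.

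Marker lists moved in this comparison too, in both directions within most lists. Of 13 microglia markers 7 rose and 5 fell, and their summed level was 957.9 to 1203 CPM with anti-miR-145 and 1072 to 1152 CPM without. Of 10 astrocyte markers 2 rose (Gfap and Sox9) and 5 fell, with sums of 551.5 to 603.1 CPM against 787.4 to 819.7 CPM. Of 8 neuron markers tested 4 rose, with sums of 766.1 to 973.1 CPM against 821.3 to 874.4 CPM. Of 8 OPC markers tested 1 rose and 3 fell, and of 15 myelin genes 2 rose and 1 fell. Called or not, 10 of the 15 myelin genes lay apart on the lower side and 4 on the higher side. Over all genes tested, 35.1% lay apart on the lower side and 32.8% on the higher side. The median log2 fold change of the myelin genes was -0.217, against 0.005 over all genes. Among the listed markers of these types that were found by symbol, none was at 0 counts in an OPC library. Their part in the results on the 6 factors was not tested.

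In OLs the question was what adding miR-145 changes. By edgeR without a term for the replicate number, no factor was called, and 0.0% of 15461 genes were. Even so, for Olig2, Nkx2-2, Zfp488 and Zfp365, 4 of the 6 factors, the higher library with miR-145 lay below the lower control library. Over all genes tested, 24.4% lay apart on this lower side and 22.9% on the higher side. These 4 also had an unadjusted p under 0.05, which 13.4% of all genes had (2067 genes), and 4.38% had it on the lower side. The median log2 fold change of the 6 was -0.535, against -0.011 over all genes. DESeq2, run on the same libraries, called 649 genes (4.2%), of which 114 were lower (0.737%), and Zfp488 and Zfp365 were among them.

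Olig1 was at 783.2 and 678.6 CPM with miR-145, overlapping the 685.8 and 661.4 CPM of miR-ctl (log2 0.12, SE 0.13, edgeR adjusted p = 0.723). Olig2 was at 297.7 and 289.8 CPM against 411.6 and 351.2 CPM, a log2 fold change of -0.37 (SE 0.13, edgeR adjusted p = 0.329). The bHLH pair therefore did not keep its proportion, with 38.0 and 42.7 Olig2 counts per 100 Olig1 counts against 60.0 and 53.1 in miR-ctl, and the difference in this ratio was not tested. Nkx2-2 was at 63.4 and 39.42 CPM against 109.7 and 73.7 CPM (log2 -0.83, SE 0.29, edgeR adjusted p = 0.327). The libraries of each group differed widely here, and the log2 value ran from -1.21 to -0.52 as single libraries were left out. Nkx6-2 was at 22.87 and 38.41 CPM against 22.24 and 31.81 CPM, so it overlapped (log2 0.19, SE 0.30, edgeR adjusted p = 0.816). Zfp488 was at 49.44 and 41.54 CPM against 95.46 and 71.52 CPM, a log2 fold change of -0.87 (SE 0.18, edgeR adjusted p = 0.171). DESeq2 gave it an adjusted p of 0.00443. Zfp365 was at 88.96 and 80.48 CPM against 155.8 and 120.1 CPM, a log2 fold change of -0.70 (SE 0.16, edgeR adjusted p = 0.19), and DESeq2 gave an adjusted p of 0.0157. In both zinc finger genes the gap between groups exceeded the spread within miR-145, while the miR-ctl libraries were farther from each other.

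Other genes of the path showed the same mixture. Of the 24 lineage factors tested, edgeR called none, 10 lay apart on the lower side and 2 on the higher side, and DESeq2 called 3 lower and 1 higher. Sox10 was at 434.4 and 453.8 CPM against 669.7 and 669.2 CPM (log2 -0.59, SE 0.12, DESeq2 adjusted p = 0.000854). Tcf7l2, a Wnt effector that marks newly forming OLs, was at 46.64 and 44.12 CPM against 68.5 and 66.02 CPM (log2 -0.56, SE 0.10, DESeq2 adjusted p = 0.00955). Myrf was at 404.9 and 568.6 CPM against 575.2 and 678.2 CPM and was called by neither tool. Sox9 was higher, at 76.12 and 67.02 CPM against 39.1 and 34.85 CPM (log2 0.96, SE 0.13, edgeR adjusted p = 0.158 and DESeq2 adjusted p = 1.03e-05). None of the 14 bHLH partners was called by either tool. In contrast to OPCs, Id1 was at 36.0 and 33.36 CPM against 37.36 and 26.69 CPM, with overlap. Id2 and Id3 overlapped their controls too. Id4 lay above both controls, at 81.6 and 46.54 CPM against 38.49 and 42.32 CPM.

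**Figure D4:**
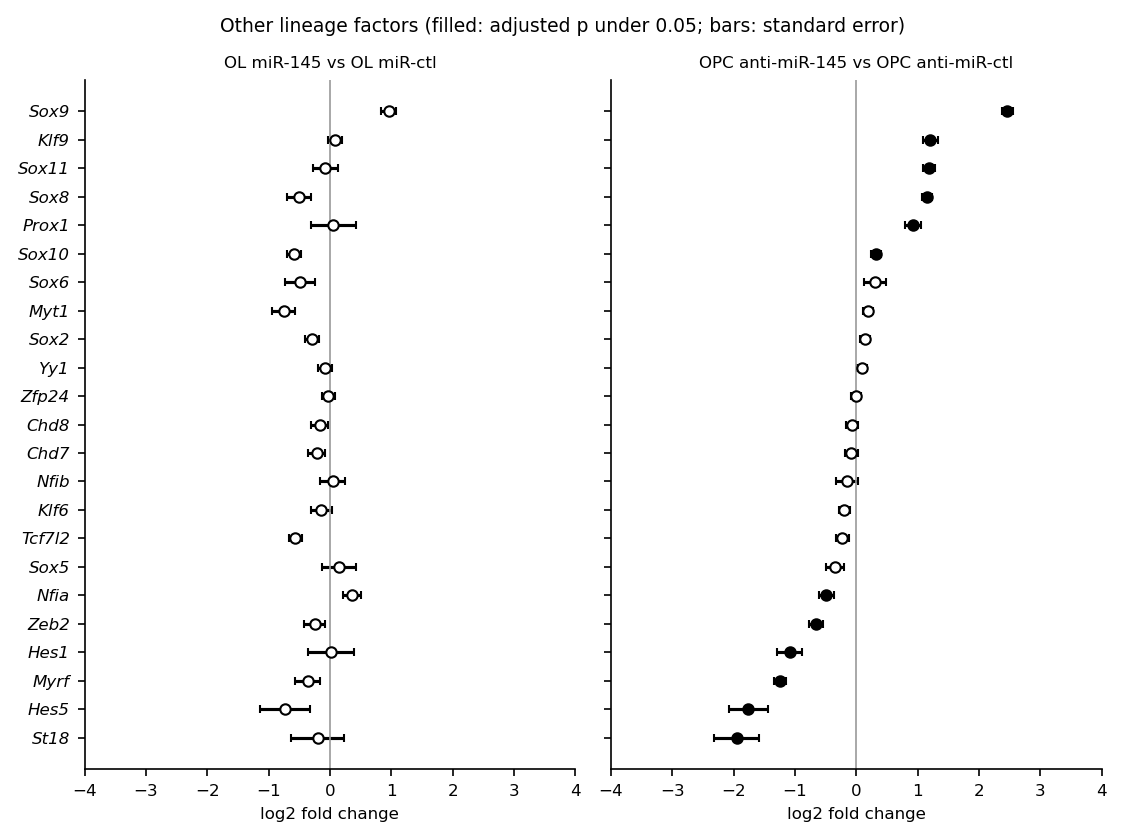
Log2 fold change with its standard error (horizontal axes) of 23 of the other lineage factors tested, for OL miR-145 against OL miR-ctl on the left and OPC anti-miR-145 against OPC anti-miR-ctl on the right, in the order of the right panel. Filled points passed an edgeR adjusted p under 0.05, which 12 did in OPCs and none in OLs, and Sox9 is the highest in both panels, at 0.96 and 2.46.

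Astrocyte markers moved with this comparison. Of 10, 9 were higher in both miR-145 libraries, 8 had an unadjusted p under 0.05, edgeR called none and DESeq2 called 6 higher. Their summed level was 9949 to 14640 CPM with miR-145 and 5959 to 6987 CPM with miR-ctl, and Gfap was at 9708 and 6709 CPM against 4799 and 4179 CPM. Of the 13 microglia markers 4 lay apart, all higher, with sums of 454.4 to 1123 CPM against 441.1 to 651.1 CPM. The 6 fibroblast or mural markers found summed to 50.68 to 85.28 CPM against 21.0 to 30.71 CPM. Their directions are not counted. Against the same controls 5 were tested with miR-145 but 4 with both mimics, so at least 1 passed the low-count filter through its miR-145 libraries. With miR-145, Col3a1 was at 3.058 and 29.87 CPM and Col1a1 at 1.76 and 16.41 CPM, high mainly in library 2. Among 15 myelin genes 6 lay apart, all lower, with sums of 21120 to 30730 CPM against 25100 to 39300 CPM. OPC markers were lower or overlapping, with Gpr17, a receptor of early differentiating cells, at a log2 fold change of -0.70 (SE 0.19, DESeq2 adjusted p = 0.0406). The part of these markers in the lower levels of Olig2, Nkx2-2, Zfp488 and Zfp365 was not tested.

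Hedgehog signalling patterns the ventral neural tube in which Olig2, Nkx2-2 and Nkx6-2 are first switched on. Of 12 pathway genes 10 were tested, and edgeR called none with miR-145 in OLs while DESeq2 called 2 higher. They were Gli3, a Gli factor whose protein can be cut to a repressor (log2 1.05, SE 0.23, DESeq2 adjusted p = 0.00732), and Smo, the signal transducer (log2 0.91, SE 0.22, DESeq2 adjusted p = 0.019). In OPCs given anti-miR-145, Gas1, a co-receptor, rose (log2 0.90, SE 0.18, edgeR adjusted p = 0.0109), and Hhip, Gli3 and Cdon fell. Gli3 was low here, at 0.472 and 0.613 CPM against 1.497 and 1.069 CPM, and DESeq2 did not call it (adjusted p = 0.0792). Gli3 kept no call without library 1 of either group, nor Cdon without OPC anti-miR-ctl library 1 or 2. Between the control stages 5 pathway genes were higher in OLs and 2 were lower. Of 13 homeodomain and neuronal factors that share or oppose the domains of the members in the neural tube, 4 could be tested. Dbx2 was at 59.48 and 41.87 CPM with miR-145 against 21.74 and 20.27 CPM (log2 1.27, SE 0.19, edgeR adjusted p = 0.158, DESeq2 adjusted p = 1.56e-05), and Pax6 fell in OPCs given anti-miR-145 (log2 -0.72, SE 0.18, edgeR adjusted p = 0.0241), though not without OPC anti-miR-ctl library 2.

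OLs given both mimics were set against the same OL miR-ctl libraries, so this comparison is not independent of the one before. No factor was called, and edgeR called 0.0% of 15436 genes, with 956 (6.19%) at an unadjusted p under 0.05 and 106 (0.687%) called by DESeq2, none of the 6 among them. Nkx2-2, Zfp488 and Zfp365 had an unadjusted p under 0.05 and lay below both controls, as 19.4% of genes did, and Olig1 lay above, as 17.3% did. Olig1 was at 759.1 and 768.4 CPM (log2 0.19, SE 0.11, edgeR adjusted p = 0.832) and Olig2 at 322.8 and 364.8 CPM, overlapping the controls (log2 -0.15, SE 0.14, adjusted p = 0.899). Nkx2-2 was at 62.35 and 60.7 CPM, close together, with a log2 fold change of -0.57 (SE 0.21, edgeR adjusted p = 0.801). Zfp488 was at 48.84 and 54.02 CPM (log2 -0.70, SE 0.17, edgeR adjusted p = 0.8), and Zfp365 was at 90.64 and 96.48 CPM (log2 -0.56, SE 0.16, edgeR adjusted p = 0.8). Nkx6-2 was at 30.41 and 54.5 CPM, its highest level in any group, yet the lower library fell inside the control range (log2 0.66, SE 0.33, edgeR adjusted p = 0.814). As single libraries were left out, the log2 value ran from -0.84 to -0.25 for Nkx2-2, from -0.89 to -0.47 for Zfp488, from -0.74 to -0.35 for Zfp365 and from -0.26 to -0.021 for Olig2, each nearest to 0 without OL miR-ctl library 1. That of Nkx6-2 ran from 0.16, without OL miR-145+miR-219 library 2, to 1.02, without library 1 of that group. The summed astrocyte markers were 7216 to 12170 CPM in these libraries, also above OL miR-ctl, and their part was not tested.

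Adding miR-219 to miR-145 was tested directly between both groups. All 6 log2 fold changes were small and positive, from 0.05 for Olig1 to 0.46 for Nkx6-2 (SE 0.38), with 0.22 (SE 0.12) for Olig2, 0.25 (SE 0.23) for Nkx2-2, 0.17 (SE 0.13) for Zfp488 and 0.13 (SE 0.11) for Zfp365. None was called, and no unadjusted p was below 0.125. For all genes edgeR called 0.0% of 15501, 1.47% (228 genes) had an unadjusted p under 0.05, and DESeq2 called 9 genes (0.0581%). Olig2 and Zfp365 lay above both miR-145 libraries, as 13.6% of genes did. The other 4 overlapped, and for Olig1, Nkx2-2 and Nkx6-2 the sign turned when a single library was left out.

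Within the OL groups Nkx6-2 varied along a different line from the other factors. In each of the 3 groups its higher library was library 2, at 31.81, 38.41 and 54.5 CPM in miR-ctl, miR-145 and miR-145+miR-219, against 22.24, 22.87 and 30.41 CPM in library 1. The summed myelin genes were also higher in library 2 of each group, at 39300, 30730 and 41490 CPM against 25100, 21120 and 25460 CPM. The summed astrocyte markers were higher in library 1, at 6987, 14640 and 12170 CPM against 5959, 9949 and 7216 CPM. Nkx2-2 ran the other way from Nkx6-2, being higher in library 1 of all 3 groups, though by little with both mimics. Nkx6-2 per 100 Nkx2-2 counts was therefore 20.3 and 43.2 in miR-ctl, 36.1 and 97.4 in miR-145, and 48.8 and 89.8 in miR-145+miR-219. In OPCs it was 5.67 and 7.60 with anti-miR-ctl and 3.33 and 3.64 with anti-miR-145. Nothing in the labels says whether libraries of the same number share a culture.

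**Figure D5:**
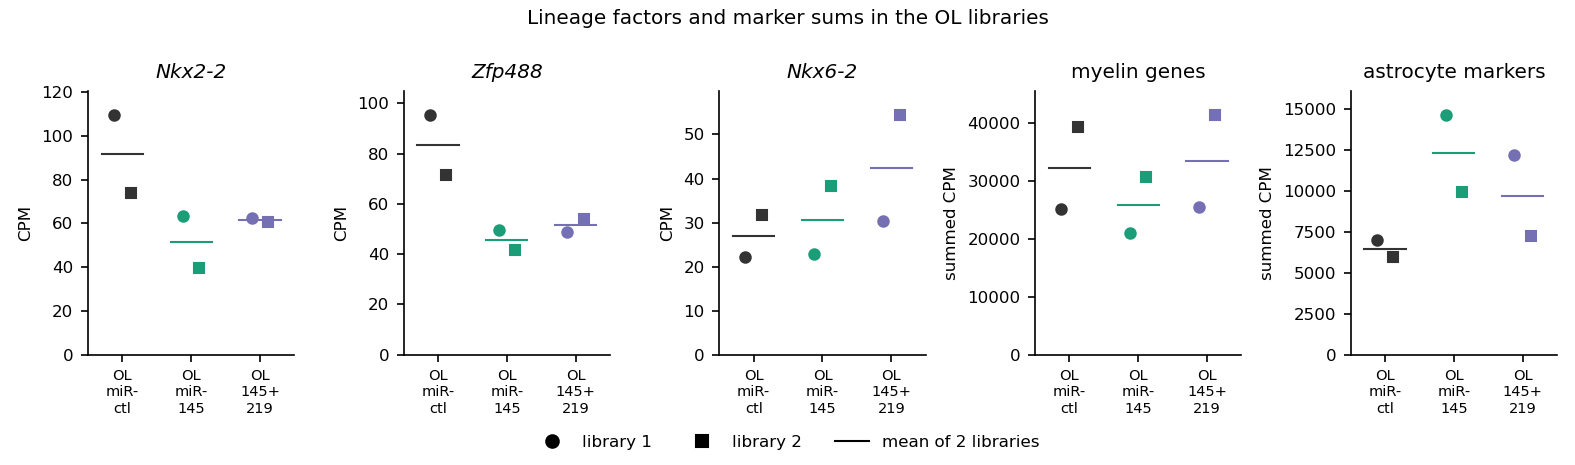
CPM of Nkx2-2, Zfp488 and Nkx6-2, and summed CPM of 15 myelin genes and 10 astrocyte markers, in the 6 OL libraries (linear axes from 0, 3 OL groups on the horizontal axis, circles for library 1, squares for library 2, bars for means). Nkx6-2 and the myelin sum are higher in library 2 of every group, Nkx2-2 and the astrocyte sum in library 1, and Zfp488 separates miR-ctl (71.52 and 95.46 CPM) from the mimic groups.

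Zfp488 and Zfp365 followed each other closely. Over the 6 OL libraries the Pearson correlation of log2(CPM + 1) was 0.998 between them, 0.934 between Nkx2-2 and Zfp488, and 0.893 between Olig2 and Zfp488, but -0.428 between Nkx6-2 and Zfp488 and -0.441 between Olig1 and Zfp488. These libraries share groups and replicate numbers, so the values are descriptions. Among 9255 genes with a mean of at least 10 CPM, the gene most like both Zfp488 and Zfp365 over all 10 libraries was Tmeff1, with a correlation of 0.998 and 0.996. Ccdc107 and Csad came next for Zfp488, and Ankrd44 and Jag2, which encodes a Notch ligand, for Zfp365. Nkx6-2 was nearest to Lpar1, a lysophosphatidic acid receptor of myelinating cells (0.997), then Bicd2 and Tmem151a. Olig1 was nearest to Cuedc1 (0.997), Pou3f3 and Syn1. Among the 3 genes nearest to Olig2 were RGD1560108 and Zc3h4. Nkx2-2 had the lowest best match, Amn1 at 0.962, followed by Gtf2i and the histone demethylase Kdm6b. With the stages so far apart a high correlation mostly repeats the difference between OLs and OPCs. Within the 6 OL libraries the correlations were 0.988 (Tmeff1 with Zfp488), 0.931 (Lpar1 with Nkx6-2), 0.962 (RGD1560108 with Olig2), 0.946 (Amn1 with Nkx2-2) and 0.893 (Cuedc1 with Olig1).

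The promoters of the zinc finger pair are shown because these genes were near-parallel across libraries and Olig proteins bind E-boxes. Each is a window of 300 bases around the RefSeq start in GRCr8, most of it upstream, on the strand of the gene, with matches to the E-box CANNTG, which reads the same on both strands, in capitals. The counts used another build, so these coordinates belong to RefSeq alone. Zfp488 lies at chr16:9299879-9300178 on the minus strand and Zfp365 at chr20:20664872-20665171 on the plus strand.
Zfp488: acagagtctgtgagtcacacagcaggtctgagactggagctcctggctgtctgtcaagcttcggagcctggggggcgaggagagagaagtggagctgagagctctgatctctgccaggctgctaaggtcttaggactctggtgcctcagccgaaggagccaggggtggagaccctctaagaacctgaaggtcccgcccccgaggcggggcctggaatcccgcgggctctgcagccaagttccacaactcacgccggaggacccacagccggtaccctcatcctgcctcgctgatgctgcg
Zfp365: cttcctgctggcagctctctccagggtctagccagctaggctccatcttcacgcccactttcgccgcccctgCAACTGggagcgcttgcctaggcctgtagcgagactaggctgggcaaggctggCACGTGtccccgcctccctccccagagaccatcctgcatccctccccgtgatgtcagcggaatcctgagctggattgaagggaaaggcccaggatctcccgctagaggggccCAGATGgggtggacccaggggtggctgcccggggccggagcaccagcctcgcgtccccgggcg
Zfp365 held 3 E-box matches in this window and Zfp488 none, although their levels ran together. Nkx6-2 held 1, and Nkx2-2 and Olig2 none, while 72.1% of 33469 rat promoters of this length held at least 1, with a median of 1. The core AAGTG of NK homeodomain sites, searched on both strands, was present in the windows of Zfp488, Zfp365 and Olig2, and in 46.2% of all promoters. ACAAT, a Sox core, was present in Olig2 alone among the 5 and in 33.7% of all promoters. ACAAAG, the longer Sox and Tcf core, was in none of the 5 and in 18.8% of all. A match is a run of letters and not a shown binding site.

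The order of the 5 groups differed among the genes. For Olig1 and Olig2 every OL group lay below every OPC group, and neighbouring OL groups overlapped except that Olig2 in miR-145 lay below the other two. For Nkx6-2, Zfp488 and Zfp365 every OL group lay above both OPC groups, which overlapped each other. Nkx2-2 alone of the 6 had its stages interleaved, since OPC anti-miR-ctl overlapped OL miR-145, and OPC anti-miR-145 stood between OL miR-145+miR-219 and OL miR-ctl. The study describes each replicate as biological, and for primary culture as the cultures from 1 mouse. It does not say this of the rat cells, and the labels do not tie a library to an animal.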

How the data were processed

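The authors assigned reads to rat transcripts of GENCODE (Rnor6.0) with Salmon 0.12.0 and deposited estimated counts summed per gene with tximport, not normalized, which were rounded here (16.0% to 17.5% of values in a library were not whole). The authors also deposited a DESeq2 table of OL miR-145 against OL miR-ctl, whose columns are a normalized signal per gene, its log2 change and error, a Wald score and p-values. Of that table only gene symbols were used, given for 14561 of its 16129 genes. Strand use in counting is not given in the sources used here, so reads from antisense partners may be included.

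For each of the 5 comparisons edgeR 4.0.16 in R 4.3.3 was run on the 4 libraries concerned (TMM, estimateDisp, glmQLFit, glmQLFTest), keeping genes that reached 5 counts in 2 or more libraries, with Benjamini-Hochberg adjustment over all genes tested and calls at an adjusted p under 0.05. Standard errors are the size of the log2 fold change divided by the square root of F. CPM were scaled by TMM over 10 libraries. Correlations used log2(CPM + 1). Alternatives were DESeq2 1.42.0 (the study's tool), its size factors within edgeR, no filter and filterByExpr, 1 model over all groups, the replicate number as a block, each library left out, CPM without TMM and Spearman correlation. Functions were tested on simulated data. Figures used matplotlib 3.10.9 in Python 3.11.15.

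Lists were bHLH partners and regulators, other lineage factors, Hedgehog pathway, ventral and neuronal patterning, myelin genes, and markers of OPCs, astrocytes, microglia, neurons, fibroblasts or mural cells and endothelial cells. Per list and comparison the text draws on the genes called (at most 4 per direction by p) or, with none called, the 2 of smallest p whose groups did not overlap, plus Sox10, Myrf, Tcf7l2 and Pdgfra. Gfap and the Id genes in OL groups were added after their values were seen. The members and lists were chosen with earlier results of these data known. Sequences and promoters came from RefSeq (GRCr8), with promoters for 5 of the 6 genes. The values of 2 genes are not reported here.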

Additional observations from a re-analysis of the deposited data

How the results depend on the processing

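Under 6 alternatives other than leaving out libraries, 173 of 180 member fold changes kept their direction and their side of the threshold, 7 crossed to being called and none changed sign. Those calls came in OL miR-145 against OL miR-ctl, where 0 members were called by edgeR, 2 by DESeq2 (Zfp488 and Zfp365) and 4 with the replicate block (Olig2, adjusted p = 0.0296, Nkx2-2, 1.36e-08, Zfp488, 8.76e-09, and Zfp365, 4.29e-06), and in OL miR-145+miR-219 against OL miR-145, where the block called 1, Nkx6-2 (adjusted p = 0.0459). The block raised the calls over all genes from 0 to 2272 (14.7%) in the first of these and from 0 to 184 (1.19%) in the second. The labels do not say that a number marks a shared animal or culture. The correlation of the deviations of same-numbered libraries was 0.237, 0.236 and 0.422 in the OL comparisons, -0.0738 in OPCs and 0.0295 between stages. The values of the OL comparisons reuse the same OL libraries. With 2 libraries per group, swapping the numbers within 1 group would only turn the sign of a value. These values therefore cannot settle whether the numbers pair the libraries. With 1 library left out, the remaining library of that group is assumed to vary like the others, and 109 of 120 member fold changes kept their direction and side, 2 lost a call and 9 changed sign. The 2 were Olig2 between stages, as given above. The sign changed for Nkx6-2 in OL miR-145 (-0.24 to 0.52, with -0.24 without OL miR-145 library 2 and -0.04 without OL miR-ctl library 1), for Olig1 (-0.034 to 0.15), Nkx2-2 (-0.041 to 0.62) and Nkx6-2 (-0.029 to 0.90) when miR-219 was added, and in OPCs for Nkx6-2 (-0.22 to 0.049), Zfp488 (-0.031 to 0.14, and -0.01 without OPC anti-miR-ctl library 2) and Zfp365 (-0.14 to 0.072). None of these was called. The cause was not tested. Of 440 list counts, 384 stayed within 1.5 times and 56 moved. With Spearman correlation 0 of the 3 genes most like a member were shared, except 1 for Nkx2-2. Depth bears most on Nkx6-2 in OPCs, with 96 to 107 counts per library.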

Other observations

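Among endothelial genes, which are not described above, single genes showed large steps in the same comparisons. Flt1, a VEGF receptor, averaged 10.4 ± 0.480 CPM (SD, n = 2) in OPC anti-miR-ctl and 0.871 ± 0.172 CPM in OPC anti-miR-145 (log2 -3.56, SE 0.19, edgeR adjusted p = 6.45e-05), and it was called with each library left out. Kdr, the other main VEGF receptor, was at 17.26 ± 4.09 CPM in OL miR-ctl and 7.157 ± 2.73 CPM in OL miR-145 (log2 -1.27, SE 0.32, edgeR adjusted p = 0.211, DESeq2 adjusted p = 0.0129). The list did not move 1 way. Kdr was at 0.670 and 0.658 CPM in OPC anti-miR-145 against 0.304 and 0.384 CPM in OPC anti-miR-ctl. Flt1 was at 0.375 and 0.556 CPM in OL miR-145 against 0.352 and 0.338 CPM in OL miR-ctl. All of these levels are low. Cdh5, an endothelial cadherin, was at 0.404 and 0.429 CPM in OL miR-145 against 0.0503 and 0.123 CPM in OL miR-ctl. It passed the filter on low counts only through the OL miR-145 libraries, so its direction is not counted here. The summed level of the 4 endothelial markers found was at most 21.08 CPM in any library.

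Of 8 neuron markers tested in OPCs given anti-miR-145, 4 were called. Tubb3 (log2 1.18, SE 0.10), Nefl (1.97, SE 0.19), Nefm (1.34, SE 0.13) and Rbfox3 (0.88, SE 0.13) all rose, the first at an edgeR adjusted p of 0.000233. The other 4 were not called, and 2 of them lay apart on the lower side. Over all 15496 genes tested, 12.1% were called higher and 35.1% lay apart on the lower side. Stmn2 was at 5.511 and 5.471 CPM against 7.345 and 6.714 CPM, and Syt1 was at 23.96 and 28.92 CPM against 32.91 and 32.23 CPM. Nefl and Nefm encode neurofilament subunits. Each of the 4 that rose was called under all alternatives and with each library left out.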
